A study of Cricetulus griseus with 16 samples.

Results

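The BAG family of co-chaperones was followed in Chinese hamster ovary (CHO) cells under 3 doses of heat. Its members were taken as the genes named Bag1, Bag2, Bag3, Bag4, Bag5 and Bag6 in the count table, and all 6 were found, each as a single entry among the 20824 genes listed. Most BAG proteins have a BAG domain that binds the ATPase domain of HSP70 chaperones. In several of them it speeds the exchange of ADP for ATP, so that the client protein is let go. The rest of each protein decides where that client is taken. BAG1 carries a ubiquitin-like domain and links HSP70 to the proteasome, BAG2 holds back the ubiquitin ligase CHIP (Stub1), and BAG3 works with the small heat shock protein HSPB8 to pass aggregated clients to autophagy. BAG4, also known as silencer of death domains, binds TNF receptor 1, BAG5 carries several BAG domains in a row and binds parkin, and BAG6 holds newly made tail-anchored membrane proteins on their way to the endoplasmic reticulum. BAG3 is known as a heat-inducible member of the family.

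The cells were kept at 37 °C or heated to 40 °C during 1 h or 6 h, or to 42.5 °C during 1 h, with 4 libraries per condition, lettered A to D. The line is an established, unmodified CHO line of ovarian origin, and no group had an added agent or a genetic change. The heated cells were compared with the unheated ones and with each other, which addresses how the dose of heat (temperature and time) shapes the response. The study's methods describe the 4 libraries of a condition as biological repeats of 1 cell line, so the p-values below measure the spread between cultures of that line. In bulk RNA, a change in the share of cells that express a gene and a change in the RNA per cell cannot be told apart.

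The libraries held between 10504192 and 14668365 counts. A count of 3 corresponded to between 0.205 and 0.286 CPM (the count per 1000000 counts of the library), and each member was read far above that in every library, from 168 counts for Bag4 to 10352 counts for Bag3. Library D of 37 °C was left out of the main comparisons. Its log2 CPM over 10085 genes correlated with those of the other controls at r = 0.969 to 0.972, against 0.994 to 0.997 within groups elsewhere. For all 6 members it lay outside the range of the other 3 controls, and the differences on the log2 scale ran from -0.66 for Bag4 to 0.46 for Bag1. Where a fit with all 4 controls changed a call, its value is given beside that call. The mesenchymal markers vimentin (2231 CPM) and fibronectin (352 CPM) were high at 37 °C, whereas Col1a1 and Col1a2 stayed at or below 4 counts in every library. Of 5 ovarian somatic markers, Foxl2, Fshr and Cyp19a1 had 0 counts in every library, while Amh reached 90 counts and Wt1 12. Of the epithelial markers found, Cldn4 had 0 counts, Epcam at most 1 and Cdh1 up to 48.

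**Figure D1:**
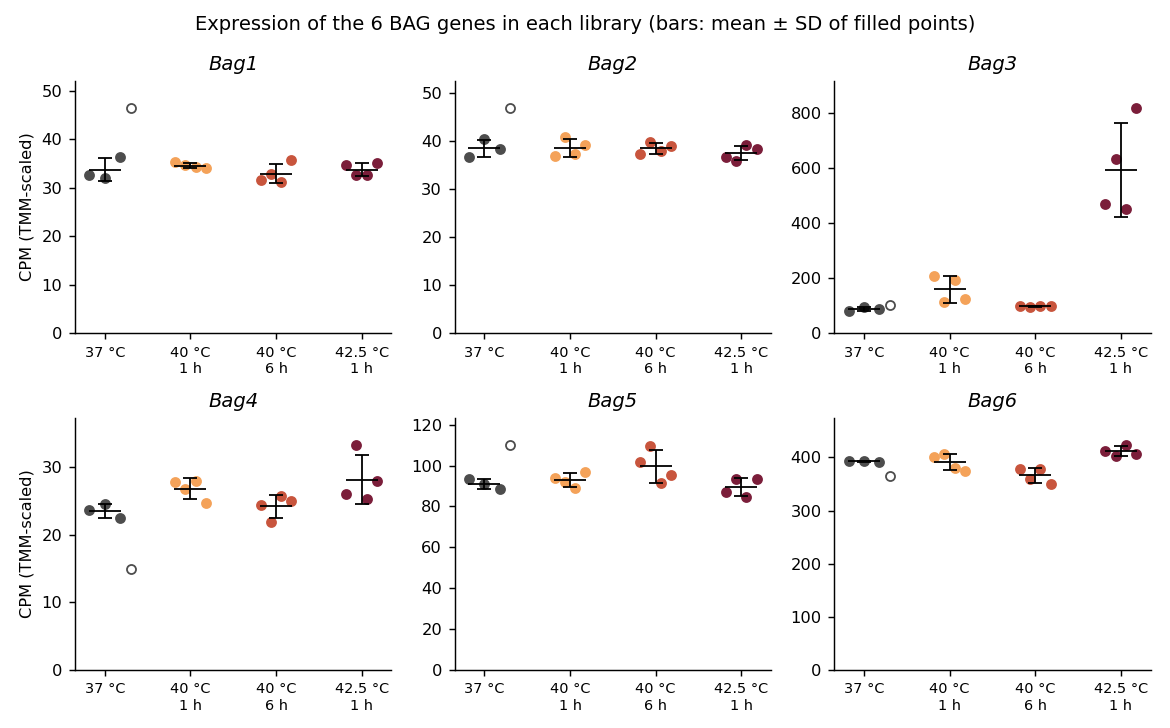
Level of each BAG gene (vertical axis, TMM-scaled CPM, starting at 0 in every panel) in each library of the 4 conditions (horizontal axis). Filled points are libraries A to D from left to right, the open point is the left-out library D of 37 °C, and the bars give the mean and the SD of the filled points. Bag3 alone climbs visibly, to between 449 and 816 CPM at 42.5 °C, while the other 5 panels stay nearly level.

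Bag3 was the member that changed with heat, and it was the only one of the 6 whose difference from 37 °C reached 1.5-fold in any condition. Unheated cells had 80.8, 94.0 and 88.3 CPM of Bag3 in libraries A, B and C. After 1 h at 40 °C the 4 libraries had 208, 111.5, 194 and 122 CPM. After 6 h at 40 °C they had 96.7, 96.2, 97.3 and 96.3 CPM. After 1 h at 42.5 °C they had 468, 633, 449 and 816 CPM. Every heated library thus lay above every control used, and the 42.5 °C libraries lay above all others by a wide margin. The left-out control, at 100.4 CPM, was above all 4 libraries of 6 h at 40 °C. The group means were 87.7 ± 6.58 (SD, n = 3) CPM at 37 °C, 158.8 ± 48.9 (n = 4) after 1 h at 40 °C, 96.6 ± 0.512 (n = 4) after 6 h at 40 °C and 592 ± 171 (n = 4) at 42.5 °C. The short mild heat gave a larger value than the long mild heat.

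At 42.5 °C Bag3 rose 6.72-fold over 37 °C, a log2 fold change of 2.75 ± 0.16 (SE) with a 95% interval from 2.40 to 3.10 and an adjusted p of 1.01e-08 in edgeR's quasi-likelihood test. A gene was called when this Benjamini-Hochberg adjusted p was under 0.05 and the change was at least 1.5-fold. By this rule 1 of the 6 members, Bag3, was called higher, against 2.83% of the 10470 genes tested. The log2 fold change of Bag3 ranked 21 from the top. The call held with all 4 controls (log2 fold change 2.71, adjusted p = 3.83e-05) and in each of the 16 alternative fits, where the log2 fold change ran from 2.54 to 2.86.

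After 1 h at 40 °C Bag3 was 1.81-fold above 37 °C, a difference of 0.86 ± 0.17 (SE) on the log2 scale with a 95% interval from 0.50 to 1.22 and an adjusted p of 0.0157. It was the 1 member called, against 0.276% of 10494 genes called higher, and its log2 fold change ranked 26 from the top. All 4 heated libraries lay above the 3 controls, as they did for 6.81% of all genes, but the heated libraries were themselves far apart. Libraries A and C stood well apart from the controls, and libraries B and D lay closer to the highest control than to libraries A and C. The coefficient of variation was 30.8%, where counting error alone would give 2.18%. This call depended on the setting. It was lost when the left-out control was added (log2 fold change 0.81, adjusted p = 0.269), in the DESeq2 Wald test (adjusted p = 0.0608) and in a test against a fold change of 1.5 (adjusted p = 1). It was also lost without control A (adjusted p = 0.0792), control B (0.0561), control C (0.0602) or heated library C (0.0631). With the library letter as a replicate block, which fits this comparison as paired, the log2 fold change was 0.94 and the adjusted p 7.3e-05. Heated library D had no control partner in that fit, so the difference rested on the pairs A, B and C. Control and heated library had 80.8 and 208 CPM in A, 94.0 and 111.5 in B, and 88.3 and 194 in C. The difference thus varied widely between the pairs. Over the 16 alternatives the log2 fold change stayed between 0.70 and 0.99 and the adjusted p ran from 7.55e-07 to 1. The study, which also left out 1 control, lists BAG3 among the genes most increased after 1 h at 40 °C.

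After 6 h at 40 °C no member was called, against 3.11% of 10499 genes called in either direction. Bag3 differed from 37 °C by 0.14 ± 0.055 (SE) on the log2 scale, with a 95% interval from 0.022 to 0.25, an unadjusted p of 0.0223 and an adjusted p of 0.0676. The 4 heated libraries all lay above the 3 controls, a pattern that 18.6% of genes had. On the adjusted p alone, 29.4% of genes passed in this comparison and 0 of the 6 members did. At an unadjusted p under 0.05, 3 of the 6 members (Bag3, Bag5 and Bag6) passed, against 41.0% of all genes, and DESeq2 also called 0 members.

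The heated groups were also compared with each other. Between 6 h and 1 h at 40 °C, Bag3 was the 1 member called. It fell by 0.72 on the log2 scale (SE 0.14, 95% interval from -1.02 to -0.41, adjusted p = 0.00299), to 0.608 of its level at 1 h. Here 0.728% of 10439 genes were called lower. The 4 libraries of 6 h lay below the 4 of 1 h, as for 10.4% of genes. Without library A of 1 h the log2 fold change was -0.56 (adjusted p = 0.00839), which is under 1.5-fold and so no longer a call. The test against a fold change of 1.5 also did not call it (adjusted p = 1).

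Raising the temperature at a fixed 1 h from 40 to 42.5 °C raised Bag3 3.71-fold, or by 1.89 ± 0.19 (SE) on the log2 scale (95% interval from 1.48 to 2.30, adjusted p = 3.05e-06). It was the 1 member called, against 1.75% of 10441 genes called higher. Against the 6 h exposure at 40 °C, Bag3 was 6.10-fold higher at 42.5 °C (log2 fold change 2.61 ± 0.14, 95% interval from 2.32 to 2.90, adjusted p = 3.59e-10). Again it was the 1 member called, where 2.53% of 10427 genes were called higher. In both comparisons every 42.5 °C library lay above every 40 °C library, as for 16.3% and 20.5% of genes, and both calls held in all 16 alternative fits. In the main fits the order of the levels was thus 42.5 °C first and 1 h at 40 °C second, while 6 h at 40 °C and 37 °C did not pass the test against each other. The place of 1 h at 40 °C above 37 °C and above 6 h at 40 °C rested on calls lost in some alternative fits, as given above.

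**Figure D2:**
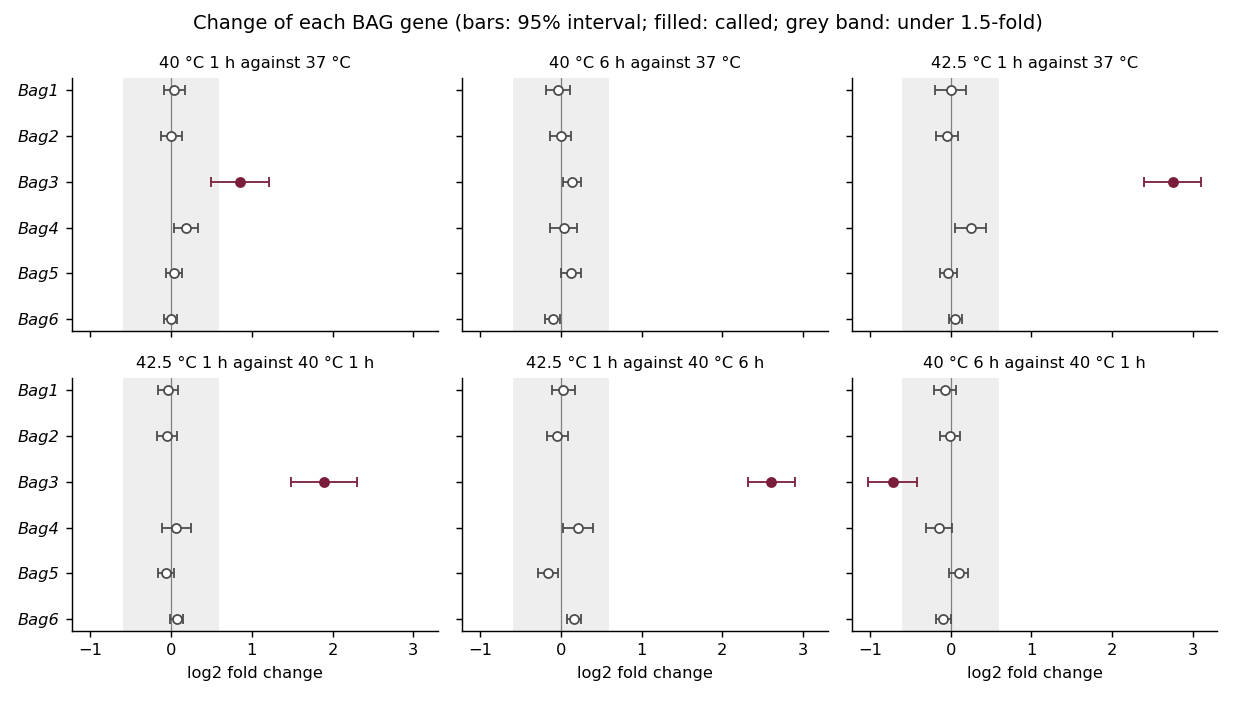
Log2 fold change (horizontal axis) of each BAG gene (vertical axis) in the 6 comparisons, with the 95% interval as a bar. Filled points were called, open points were not, and the grey band marks changes under 1.5-fold. Only Bag3 leaves the band, to the right in 4 panels and to the left in the panel of 6 h against 1 h at 40 °C, and the intervals of the other 5 genes end inside it.

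The other 5 members stayed close to their unheated level. Over the 6 comparisons, all 30 of their 95% intervals lay inside a 1.5-fold change in either direction, and the bound farthest from 0 was 0.44 on the log2 scale, or 1.35-fold, for Bag4 at 42.5 °C against 37 °C. A larger change than that was therefore outside the interval of each. With all 4 controls, 13 of the 15 intervals of the comparisons with 37 °C remained inside 1.5-fold, and the farthest bound was 1.68-fold, again Bag4 at 42.5 °C. The median log2 fold change of the 6 members against 37 °C was 0.037 after 1 h at 40 °C, 0.016 after 6 h and 0.030 at 42.5 °C, next to medians of 0.00036, 0.0012 and -0.0017 over all genes tested.

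Bag4, whose protein keeps TNF receptor 1 from signaling without its ligand, had the largest difference from 37 °C among them. It had 23.7, 24.6 and 22.5 CPM in the 3 controls used, 27.9, 26.8, 28.0 and 24.7 CPM after 1 h at 40 °C, 24.4, 21.8, 25.8 and 25.02 CPM after 6 h at 40 °C, and 26.1, 33.4, 25.3 and 28.0 CPM at 42.5 °C. The libraries of both 1 h groups lay above the 3 controls, which 6.81% of genes did at 40 °C and 23.1% at 42.5 °C. At 42.5 °C the difference from 37 °C was 0.25 ± 0.090 (SE) on the log2 scale, or 1.19-fold, with an adjusted p of 0.0367. It passed the threshold on p alone, as 20.8% of genes did in that direction and 43.1% in either, and not the threshold on the fold change. With the left-out control, at 14.9 CPM the lowest library of all for this gene, the log2 fold change was 0.39 and the adjusted p was 0.122. At 40 °C the log2 fold changes were 0.19 after 1 h (adjusted p = 0.246) and 0.035 after 6 h (adjusted p = 0.773). Lsm1, which encodes an mRNA decay factor and lies beside Bag4 in the RefSeq annotation, had log2 fold changes of 0.17, 0.36 and 0.22 in the 3 comparisons with 37 °C (adjusted p = 0.524, 0.00854 and 0.119).

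Bag6 had nearly equal levels in the unheated cells. Its 3 controls had 392.8, 393.6 and 392.1 CPM, a coefficient of variation of 0.199% where counting error alone would give 1.39%. The libraries had 401, 406, 381 and 375 CPM after 1 h at 40 °C, 378, 359, 379 and 350.0 CPM after 6 h at 40 °C, and 413, 403, 424 and 406 CPM at 42.5 °C. The 6 h libraries all lay below the controls, as for 17.6% of genes, and the 42.5 °C libraries all above them, as for 23.1%. Neither difference passed: the log2 fold changes were -0.10 (adjusted p = 0.0913) and 0.059 (adjusted p = 0.196). Between the 2 heated groups at the ends of this range, the 42.5 °C group and the 6 h group, Bag6 differed by 0.16 ± 0.042 (SE) on the log2 scale, with an adjusted p of 0.00437. In that comparison 22.5% of genes passed on p alone in the same direction, and 47% in either direction.

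Bag5 went the other way between the same 2 groups. It had 93.5, 90.8 and 88.4 CPM in the controls, 94.1, 91.8, 89.0 and 96.9 CPM after 1 h at 40 °C, 102, 109.8, 91.4 and 95.5 CPM after 6 h at 40 °C, and 87.0, 93.4, 84.7 and 93.2 CPM at 42.5 °C. The groups overlapped in every comparison. At 42.5 °C its level was below that of 6 h at 40 °C with -0.16 ± 0.058 (SE) on the log2 scale and an adjusted p of 0.034, or 0.896 of it. On p alone 24.5% of genes passed in that direction. Its difference from 37 °C was 0.13 after 6 h at 40 °C (adjusted p = 0.122) and -0.028 at 42.5 °C (adjusted p = 0.669).

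Bag1 and Bag2 differed least between conditions, with no log2 fold change beyond 0.071 in either direction in the 6 comparisons. Bag1 had 33.7 ± 2.36 (SD, n = 3) CPM at 37 °C, 34.5 ± 0.506 (n = 4) after 1 h at 40 °C, 32.9 ± 2.01 (n = 4) after 6 h and 33.7 ± 1.30 (n = 4) at 42.5 °C. Its 15 libraries ran from 31.2 to 36.4 CPM and the groups overlapped throughout. The 95% interval of its log2 fold change at 42.5 °C against 37 °C ran from -0.19 to 0.19. Bag2 had 38.5 ± 1.79, 38.6 ± 1.81, 38.5 ± 1.08 and 37.5 ± 1.53 CPM in the same order, and its 15 libraries ran from 35.8 to 40.8 CPM. Its interval at 42.5 °C against 37 °C ran from -0.18 to 0.087. No comparison of either gene had an adjusted p under 0.46. In the RefSeq annotation of another assembly of the species, the locus LOC100764333 overlaps Bag2. Whether the authors' counting used strand is not given in the sources used here, so reads of the overlapping pair may not be told apart.

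**Figure D3:**
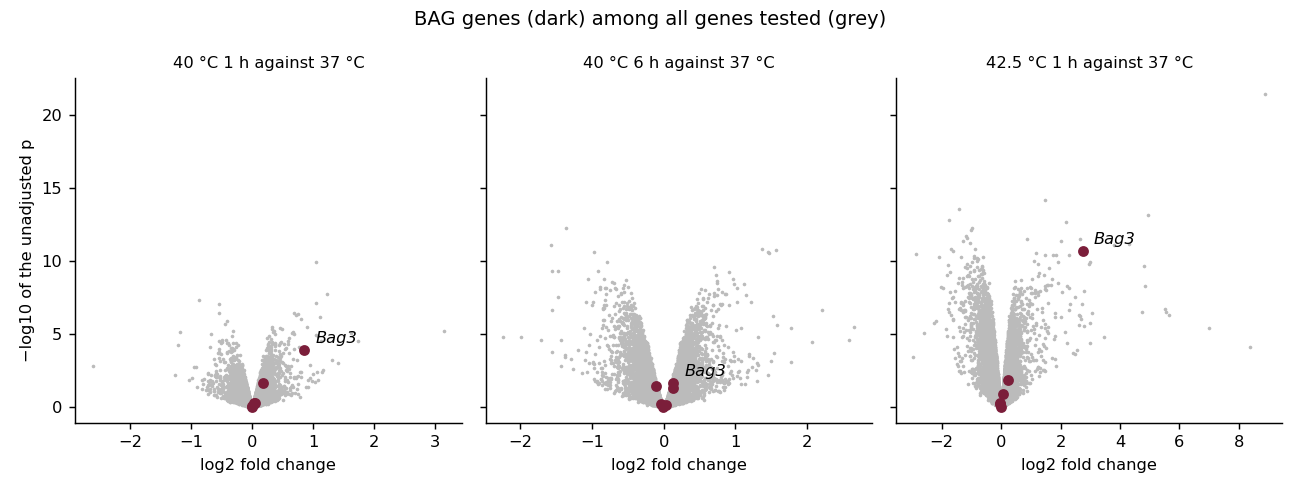
All genes tested (grey points) and the 6 BAG genes (dark points) in the 3 comparisons with 37 °C, by log2 fold change (horizontal axis) and −log10 of the unadjusted p (vertical axis). Bag3 stands at 0.86, 0.14 and 2.75 on the horizontal axis from left to right, and the other 5 BAG genes stay near 0 at the foot of each panel.

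The make-up of the family's reads shifted with Bag3. Of all counts on the 6 members, with no correction for transcript length, Bag3 held 13.1% ± 0.842 (SD, n = 3) at 37 °C, 21.1% ± 5.24 (n = 4) after 1 h at 40 °C, 14.7% ± 0.247 (n = 4) after 6 h at 40 °C and 48.9% ± 7.01 (n = 4) at 42.5 °C. The lowest library at 42.5 °C was at 42.6% and the highest at 57.6%. The 5 other members together, in CPM without TMM scaling, stood at 593 ± 5.72 in unheated cells, 591 ± 18.1 after the short and 567 ± 13.0 after the long exposure to 40 °C, and 582 ± 6.88 at 42.5 °C. The sum over the other members thus differed between groups by far less than Bag3 did, and these shares are given as a description with no test. Levels of different members were not ranked against each other, because no transcript lengths were at hand.

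Within a heated group, the libraries of Bag3 fell in an order that recurred in other heat-responsive genes. After 1 h at 40 °C libraries A and C were high and B and D low for Bag3. Dnajb1, which encodes an HSP40 co-chaperone, had 124.7, 52.9, 112.7 and 59.6 CPM in libraries A to D. Hsph1, which encodes the HSP110 exchange factor, had 874, 449, 860.4 and 549 CPM. At 42.5 °C libraries B and D were above A and C for the same 3 genes, with 343, 465, 242 and 526 CPM of Dnajb1 and 1837, 2771, 1727 and 3768 CPM of Hsph1. After 6 h at 40 °C the genes parted: Bag3 lay between 96.2 and 97.3 CPM, whereas Hsph1 ran from 597 CPM in library A to 1069 CPM in library B. The coefficient of variation of Bag3 was 0.53% there, where counting error alone would give 2.89%. Its values thus lay closer together than counting error would give. Dnajb1 is also among the genes most like Bag3 over these same libraries, a choice that favors a shared order. The labels give no batch, date or position for the libraries, and what set the order was not tested.

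The genes with the pattern most like that of Bag3 were chosen by Pearson's correlation of log2 CPM over the 15 libraries, among 10626 genes. They were Zfand2a (r = 0.987), which encodes an AN1-type zinc finger protein, Nuak2 (0.987), a kinase related to AMPK, Dusp1 (0.987), a phosphatase of MAP kinases, Dnajb1 (0.986), and a gene listed only as ENSCGRG00001018342 (0.981). The libraries share their conditions, and the 42.5 °C libraries stand apart from the rest, so these values describe the pattern over groups and carry no p. All 5 genes were also the 5 nearest with all 16 libraries, and 1 of the 5 was among the nearest by Spearman's correlation. Zfand2a had 19.7, 18.6 and 18.5 CPM in the controls, 93.9, 33.7, 85.1 and 40.2 CPM after 1 h at 40 °C, 13.8, 17.3, 17.5 and 18.9 CPM after 6 h, and 281, 410, 262 and 565 CPM at 42.5 °C. Like Bag3 it was near its control level after 6 h at 40 °C. Dnajb1 was not, with 44.6 ± 6.65 (SD, n = 4) CPM there against 28.4 ± 1.99 (n = 3) at 37 °C. Its log2 fold change was 0.65 with an adjusted p of 0.000112, and in 1 fit over all groups the adjusted p was 0.0928.

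**Figure D4:**
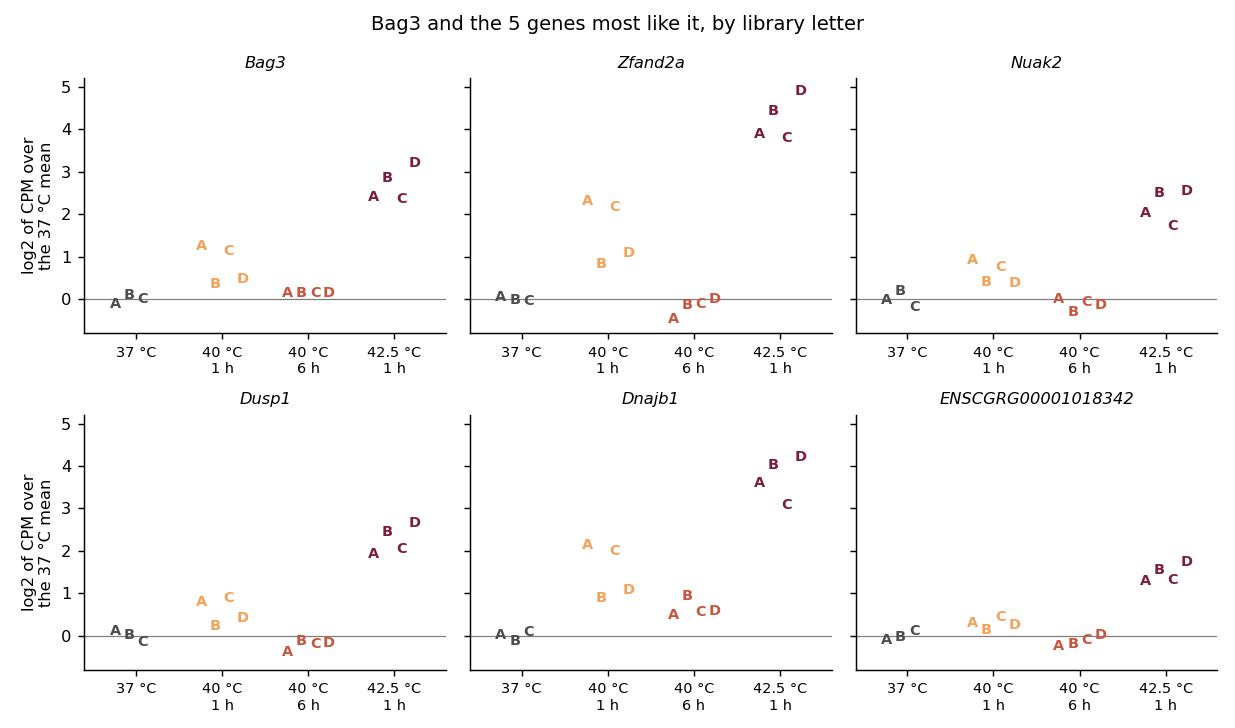
Bag3 and the 5 genes most like it in the 4 conditions (horizontal axis), as the log2 of each library's CPM over the mean of the 3 controls used (vertical axis). Each letter is a library, and library D of 37 °C is not drawn. In all 6 panels the letters A and C lie above B and D after 1 h at 40 °C, and the 42.5 °C libraries lie above every other library. The 5 genes were chosen by likeness to Bag3 over these same libraries, which favors a shared order.

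For the other members the likeness was lower. Genes most like Bag6 included Xpo6 (r = 0.935), an exportin, and Plec (0.917), the cytoskeletal linker plectin. Those most like Bag5 were Exosc3 (0.896), a subunit of the RNA exosome, BC005624 (0.860) and Eif2b5 (0.853), a subunit of the exchange factor of eIF2. Those most like Bag4 were Tada2b (0.879), Mbd5 (0.871) and Zc3h12c (0.843). For Bag1 they were Gm14137 (0.777), Nxf7 (0.696) and Uri1 (0.683), and for Bag2 Hyal1 (0.737), Srd5a1 (0.712) and Hoxc9 (0.681). None of the 3 genes of Bag1 or of Bag2 was among the nearest 3 once the left-out library was included. Among the members themselves, the highest correlation was that of Bag3 with Bag4 (r = 0.696) and the lowest that of Bag5 with Bag6 (r = -0.68), over the same 15 libraries.

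The genes around the BAG proteins were read from 6 lists. These were HSP70 proteins and co-chaperones, exchange factors outside the family, and BAG3 partners with small heat shock proteins. The others were the BAG6 complex, signaling partners of the other members, and heat shock transcription factors with Hsbp1. Some names were not found in the table, among them Hspa8, Hspa1a and Hspa1b, and these genes were not analysed here. The table lists 4423 genes by identifier only, and the missing names may be among them. The study lists HSPA1A/HSPA1B among the most increased genes in all 3 heat treatments, and HSPA8 after 1 h at 40 °C. Of the other exchange factors for HSP70, 6 of 8 could be tested. In each comparison with 37 °C 1 was called higher, Hsph1, where 0.276%, 1.45% and 2.83% of all genes were. Its log2 fold changes were 1.08 ± 0.17 (SE) after 1 h at 40 °C, 1.21 ± 0.14 after 6 h and 2.96 ± 0.20 at 42.5 °C (adjusted p = 0.00441, 1.01e-05 and 4.19e-08). With all 4 controls the call after 1 h at 40 °C was lost (1.06, adjusted p = 0.127), and the others held. The mean level of Hsph1 was 752 ± 216 CPM (SD, n = 4) after 6 h at 40 °C and 683 ± 217 CPM (n = 4) after 1 h, a log2 difference of 0.14 ± 0.19 (SE, adjusted p = 0.648) between exposures that differed for Bag3 by -0.72. The list median was 0.076, 0.21 and 0.14 in the 3 comparisons.

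Of the HSP70 proteins and co-chaperones, 11 of 17 could be tested. After 1 h at 40 °C 1 was called higher, Dnajb1 (log2 fold change 1.63 ± 0.25, SE), where 0.276% of all genes were, and with all 4 controls this call was lost (1.57, adjusted p = 0.114). After 6 h at 40 °C 3 were called higher, where 1.45% of all genes were: Dnajb1 (0.65), Dnaja1 (0.74 ± 0.077), another HSP40, and Stip1 (0.76 ± 0.092), which bridges HSP70 and HSP90. At 42.5 °C 3 were called higher, where 2.83% of all genes were. These were Dnajb1 (3.79 ± 0.21), Dnaja1 (0.94 ± 0.10) and Dnajb4 (0.88 ± 0.13). All 3 held with all 4 controls, and the test against a fold change of 1.5 did not call Dnajb4 (adjusted p = 0.171). The call of Dnajb1 after 6 h was lost without library B of 6 h (0.54, under 1.5-fold). It was also lost in 1 fit over all groups (0.65, adjusted p = 0.0928). The test against a fold change of 1.5 called none of the 3 genes after 6 h. None was called lower in these comparisons, and the list medians were 0.15, 0.15 and 0.11. The list as tested leaves out Hspa8, Hspa1a and Hspa1b, so these values do not cover them.

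Of the BAG3 partners and small heat shock proteins, 16 of 22 could be tested. Hspb1, the small heat shock protein Hsp25 or Hsp27, was called higher in all 3 comparisons with 37 °C. Over all genes, 0.276% were called higher after 1 h at 40 °C, 1.45% after 6 h and 2.83% at 42.5 °C. The log2 fold changes of Hspb1 were 1.11 ± 0.14, 1.53 ± 0.20 and 2.98 ± 0.20. With all 4 controls the call of Hspb1 after 1 h at 40 °C was lost (0.82, adjusted p = 0.408), and its others held. Hspb8, the direct partner of BAG3, had 195 ± 9.17 (SD, n = 3) CPM at 37 °C and 489 ± 114 (n = 4) at 42.5 °C, where it was called (log2 fold change 1.32 ± 0.12, SE, adjusted p = 7.84e-07). At 40 °C its log2 fold changes were 0.33 after 1 h and 0.44 after 6 h (adjusted p = 0.0302 and 0.00136), under 1.5-fold. Flnc, which encodes filamin C, a client of BAG3-mediated autophagy in muscle, was called lower after 6 h at 40 °C and at 42.5 °C. Its log2 fold changes were -0.65 ± 0.16 and -0.585 ± 0.16, where 1.66% and 4.68% of all genes were called lower. Its control level was low, at 5.66 ± 0.795 (SD, n = 3) CPM. Its call after 6 h was lost with all 4 controls (-0.49, adjusted p = 0.161), with the replicate block, or without control A (-0.58) or heated library D (-0.57). Its call at 42.5 °C stood at the edge of 1.5-fold and was lost with all 4 controls (-0.43, adjusted p = 0.211), with DESeq2, or without control A (-0.52), control B (-0.54), heated library B (-0.48) or heated library C (-0.56). The list medians were 0.040, 0.25 and 0.098.

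Of the BAG6 complex and the factors of tail-anchored protein insertion, 8 of 12 could be tested and 0 were called in any of the 6 comparisons by edgeR or by DESeq2. On p alone, 3 were lower after 6 h at 40 °C (Get4, Sgta and Rnf126, with log2 fold changes from -0.21 to -0.16), a direction in which 14.8% of all genes passed. At 42.5 °C 4 were lower (Ubl4a, Sgta, Wrb and Rnf126, from -0.33 to -0.28) and 1 was higher (ASNA1, 0.15), next to 22.3% of all genes lower and 20.8% higher. At an unadjusted p under 0.05, 0, 3 and 5 of the 8 passed against 37 °C after 1 h at 40 °C, after 6 h and at 42.5 °C, where 14.8%, 41.0% and 50.7% of all genes did. The median of the list at 42.5 °C was -0.18. Of the signaling partners of BAG1, BAG2, BAG4 and BAG5, all 12 found of 15 were tested. Tnfrsf1a, the TNF receptor 1 that BAG4 binds, had 37.0, 38.6 and 35.4 CPM in the controls and 24.7, 19.5, 22.3 and 24.1 CPM at 42.5 °C. It was called lower there, at -0.71 ± 0.079 (SE) on the log2 scale with an adjusted p of 4.35e-06, against 4.68% of genes called lower. The test against a fold change of 1.5 did not call it (adjusted p = 0.471). It was not called at 40 °C, where the log2 fold changes were -0.054 and 0.053 (adjusted p = 0.724 and 0.563).

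Of the heat shock transcription factors and Hsbp1, 0 were called against 37 °C by edgeR or by DESeq2. At an unadjusted p under 0.05, 0, 2 and 2 passed in the 3 comparisons, next to the same shares of all genes (14.8%, 41.0% and 50.7%). Without the filter on low counts, or in 1 fit over all groups, 1 was called at 42.5 °C. Hsf1, the main activator of heat shock genes, had log2 fold changes of 0.042, 0.11 and -0.14 (adjusted p = 0.713, 0.121 and 0.021), and Hsf2 had -0.032, 0.20 and 0.24 (adjusted p = 0.877, 0.0472 and 0.0172). Of the 5 names in the list (Hsf1, Hsf2, Hsf4, Hsf5 and Hsbp1), 4 could be tested at 40 °C and 3 at 42.5 °C. In the comparison of 42.5 °C with 6 h at 40 °C, Hsf4, at 0.311 ± 0.0883 (SD, n = 4) against 1.15 ± 0.156 (n = 4) CPM, was called lower (-1.84 ± 0.33, SE, adjusted p = 0.000265), and with a minimum of 10 counts in every library it was not tested.

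**Figure D5:**
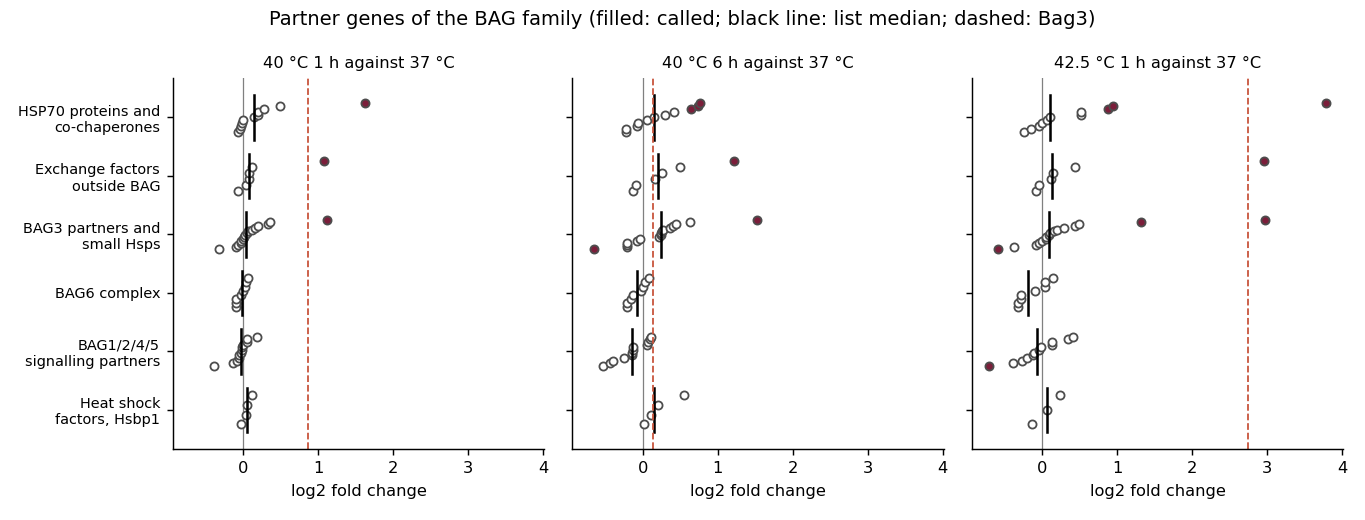
Log2 fold change against 37 °C (horizontal axis) of the tested partner genes of the BAG family, by list (vertical axis), for the 3 heated conditions. Filled points were called, the black line is the list median and the dashed line marks Bag3. At 42.5 °C Dnajb1 (3.79), Hspb1 (2.98) and Hsph1 (2.96) lie beyond the line of Bag3 at 2.75, while the list medians stay between -0.18 and 0.14.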

How the data were processed

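RNA of CHO cells was sequenced by the authors from TruSeq RNA libraries, 4 per condition. Per the study's methods, reads were trimmed, mapped to the Cricetulus griseus assembly CHOK1GS_HDv1 and counted per gene in CLC Genomics Workbench. The submitters' processing notes name bcl2fastq. Versions, annotation release, strand setting and the treatment of multi-mapping reads are not given in the sources used here. The deposited values are raw read counts per gene, without normalization. Groups were taken from the sample labels.

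Counts were scaled by TMM in edgeR 4.0.16 (R 4.3.3) and filtered with filterByExpr, which kept all 6 members in every comparison. Each pair of groups was fitted alone with glmQLFit and tested with glmQLFTest, 2-sided, over all genes kept. Calls needed a change of 1.5-fold or more and, after Benjamini-Hochberg adjustment, a p under 0.05. SEs were derived from the log2 fold change and the F statistic. Library D of 37 °C was left out, leaving 15 libraries. It was identified as the one whose counts are not in the study's own count table of 920 genes. CPM values used TMM factors over all 16 libraries. Counting error is the square root of the counts, and floors of 3 counts cover counting error only. Likeness used log2 CPM with a prior count of 2. The pipeline was tested on simulated data.

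The members, gene lists and tests were chosen with earlier results of these data known. Named were all members, of each partner list at most the 4 called genes with the largest change, and the 5 genes most like Bag3 and 3 most like each other member. 1 of these is not reported here. Other genes named (Stub1, Hsf1, Hsf2, the BAG6 complex genes and neighbors) were named after their values were seen. Libraries with the same letter were checked for pairing by the correlation of their deviations from the group means. For 40 °C 1 h against 37 °C all 3 pairs were above 0.1 (0.1006 to 0.188), so a paired fit is also given. These correlations are low, and the labels give no pairing beyond the letter. The main values of this comparison come from the unpaired fit, with the replicate block given beside them. In the other 5 comparisons at least 1 pair was under 0.1. Alternatives were other size factors, filters, controls, thresholds, a joint fit, DESeq2 1.42.0, a replicate block and each library left out. Gene neighbors came from RefSeq on CriGri-PICRH-1.0, another assembly, so no coordinates are given. Reference sequences were not analysed here.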

Additional observations from a re-analysis of the deposited data

Results flagged for a closer look

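Among 24 groups of 4 libraries (6 genes in 4 conditions), 1 held a library far from the rest by Dixon's criterion, which chance alone meets in about 1 group in 20. It was Bag6 at 37 °C, where library D, the library left out of the main comparisons, was lowest at 366 CPM against 392 to 394 CPM in the other 3, and its gap made up 0.944 of the range of the group. The other 3 values lay closer together than counting error alone would give, which widens that ratio.

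The response of Bag3 differed between the heat doses by direct tests. It was higher at 42.5 °C than after 1 h at 40 °C by 1.89 on the log2 scale and than after 6 h at 40 °C by 2.61, and its log2 fold change between 6 h and 1 h at 40 °C was -0.72. The last of these was under 1.5-fold without library A of 1 h (-0.56).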

How the results depend on the processing

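Of 102 recomputed counts of called members, 91 stayed within 1.5 times the main count. The 1 member called after 1 h at 40 °C against 37 °C became 0 with all 4 controls, in the DESeq2 Wald test and in the test against 1.5-fold, and 0 to 1 with 1 library left out. For 6 h against 1 h at 40 °C the 1 called member became 0 in the test against 1.5-fold, and 0 to 1 with 1 library left out. The loss with the 1.5-fold test follows from its stricter null, and the other causes were not tested. On adjusted p alone, 2 of 6 members passed at 42.5 °C against 37 °C, next to 43.1% of all genes, and 3 of 6 at 42.5 °C against 6 h at 40 °C, next to 47%. The replicate block changed no member's call. For Bag3 after 1 h at 40 °C it gave 0.94 (adjusted p = 7.3e-05), from the pairs A, B and C alone. Of 576 recomputed log2 fold changes of members, 537 kept their direction and call, 9 lost a call and 30 changed sign. All 30 were of uncalled members near 0.

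The sign changes were these. For 1 h at 40 °C against 37 °C with all 4 controls, log2 fold changes were -0.091 for Bag1, -0.072 for Bag2, -0.042 for Bag5 and 0.018 for Bag6. By total counts Bag2 was at -0.014, and with the replicate block Bag2 was at -0.0031 and Bag6 at 0.012. At 42.5 °C against 37 °C, Bag1 was at 0.0041 with DESeq2 size factors, 0.0069 in 1 fit over all groups and 0.0031 in the DESeq2 Wald test, and by total counts Bag6 was at -0.014. By total counts Bag1 was at -0.023 for 42.5 °C against 6 h at 40 °C. With 1 library left out, Bag2 ran from -0.030 to 0.041 and Bag6 from -0.026 to 0.0095 for 1 h at 40 °C against 37 °C. For 6 h at 40 °C against 37 °C Bag1 ran from -0.071 to 0.023 and Bag2 from -0.033 to 0.037. At 42.5 °C against 37 °C Bag1 ran from -0.034 to 0.056 and Bag5 from -0.047 to 0.00047. For 42.5 °C against 1 h at 40 °C Bag4 ran from -0.018 to 0.12, and for 6 h against 1 h at 40 °C Bag2 ran from -0.024 to 0.024.

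Of 540 recomputed counts of called partner genes, 518 stayed within 1.5 times the main count. With all 4 controls, the calls of Dnajb1, Hsph1 and Hspb1 after 1 h at 40 °C were lost, and all genes called in that comparison went from 35 to 3. Without library C of 42.5 °C, 5 HSP70 proteins and co-chaperones were called there. The genes most like a member changed more readily: with all 16 libraries 0 of 3 were shared for Bag1 and for Bag2 and 1 of 3 for Bag4, and by Spearman's correlation 1 of 3 for Bag1, Bag4 and Bag5 and 1 of 5 for Bag3. The share of reads on Bag3 was not recomputed with coding lengths, which were not at hand. With 3 or 4 libraries a group, changes well under 1.5-fold in the members with the fewest counts were at the limit of what these libraries can show.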
